A study of Mus musculus with 6 samples.

Results

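Granins and the enzymes that process prohormones were examined across 6 Ribo-seq libraries of mouse tissue. The set has 9 genes, Chga, Chgb, Scg2, Scg3, Scg5, Pcsk1, Pcsk2, Pcsk1n and Cpe, out of 18437 mRNAs listed in any library. They were found through their Ensembl gene IDs, and all 9 were present. The genes were chosen by their values in these same tables, with Cpe named as 1 of the densest mRNAs of the library labelled small intestine, so the pattern over the libraries is a description of the chosen genes and not a test.

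Ribo-seq sequences the mRNA fragments that translating ribosomes protect from RNase. The mice were untreated wild-type C57BL/6J animals aged 4 weeks, and each of 6 tissues gave 1 library, labelled small intestine, kidney, brain, heart, colon or lung. The deposited value is RPKM, the reads on the coding sequence (CDS) of an mRNA, divided by CDS length and by the total of reads on CDSs in that library, and it measures ribosome density. Each RPKM was a whole multiple of what 1 read is worth, so the reads behind every value are known. Intervals given below are exact 95% intervals from these reads. They cover counting error only, since the reads carry no molecular identifiers and there was 1 library per label, and no test between libraries was made. Where an mRNA had no reads, the RPKM that 3 reads would give is stated as the limit. Folds and ratios taken at this limit lie above the lower ends of their exact intervals.

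Neurons and endocrine cells store peptides in dense-core granules. Granins are acidic proteins that aggregate in the trans-Golgi network and help to form these granules, and several of them are also cut into peptides. Prohormones are cut after pairs of basic residues by the prohormone convertases encoded by Pcsk1 and Pcsk2, the basic residues left at the new ends are trimmed by the carboxypeptidase encoded by Cpe, and many peptides are then amidated by the enzyme encoded by Pam.

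The libraries held between 4504853 and 10635031 reads on CDSs, and between 11520 and 15028 mRNAs had reads. Markers went against 4 of the 6 labels, with 6 markers checked per tissue. All 6 brain markers were highest in the library labelled small intestine, all 6 colon markers in that labelled kidney, all 6 kidney markers in that labelled colon, and all 6 small intestine markers in that labelled brain. Heart and lung markers were highest under their own labels, 6 of 6 each. Every library is therefore called by its label, "under kidney" and the like stand for the library with that label, and a direction given here holds between labels, not between tissues. These are bulk tissues, in which fewer cells of a type and a lower density per cell cannot be told apart.

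Sequence that carries the control of both convertases is shown first, because the binding partners of the convertases are themselves members. Pcsk1n encodes proSAAS, which inhibits the Pcsk1 convertase through a hexapeptide, and Scg5 encodes 7B2, which binds the Pcsk2 convertase and inhibits it through a C-terminal stretch around a pair of lysines. In these CDS stretches, read 5′ to 3′ from the mouse genome GRCm39, capitals mark codons 237 to 242 of Pcsk1n, which encode the hexapeptide, and codons 198 to 199 of Scg5, the lysine pair. The Pcsk1n stretch is in exon 3 of its transcript, at chrX:7789268-7789297 on the plus strand. The Scg5 stretch is in exon 6, at chr2:113607176-113607205 on the minus strand.
Pcsk1n: ggggctCTGCTACGCGTCAAACGCctggag
Scg5: aatgttgtggcaAAGAAAtctgtcccccac

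All 9 genes had their highest density in the library labelled small intestine. Over all 13752 mRNAs with at least 50 reads in the 6 libraries together, 21.8% were highest there, and the rule that chose the genes used these values. The highest library exceeded the next by between 2.26-fold (Pcsk1) and 127-fold (Pcsk2), with a median of 13.9, where the median over 13609 mRNAs with reads in at least 2 libraries was 1.73. For 6 of the 9 genes this fold was at least 5. Of the 13752 mRNAs, 8.17% were highest under small intestine by at least 5-fold. Chgb, at 3.73-fold, was the nearest below that fold, and Cpe, at 12.1-fold, the nearest above it.

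**Figure D1:**
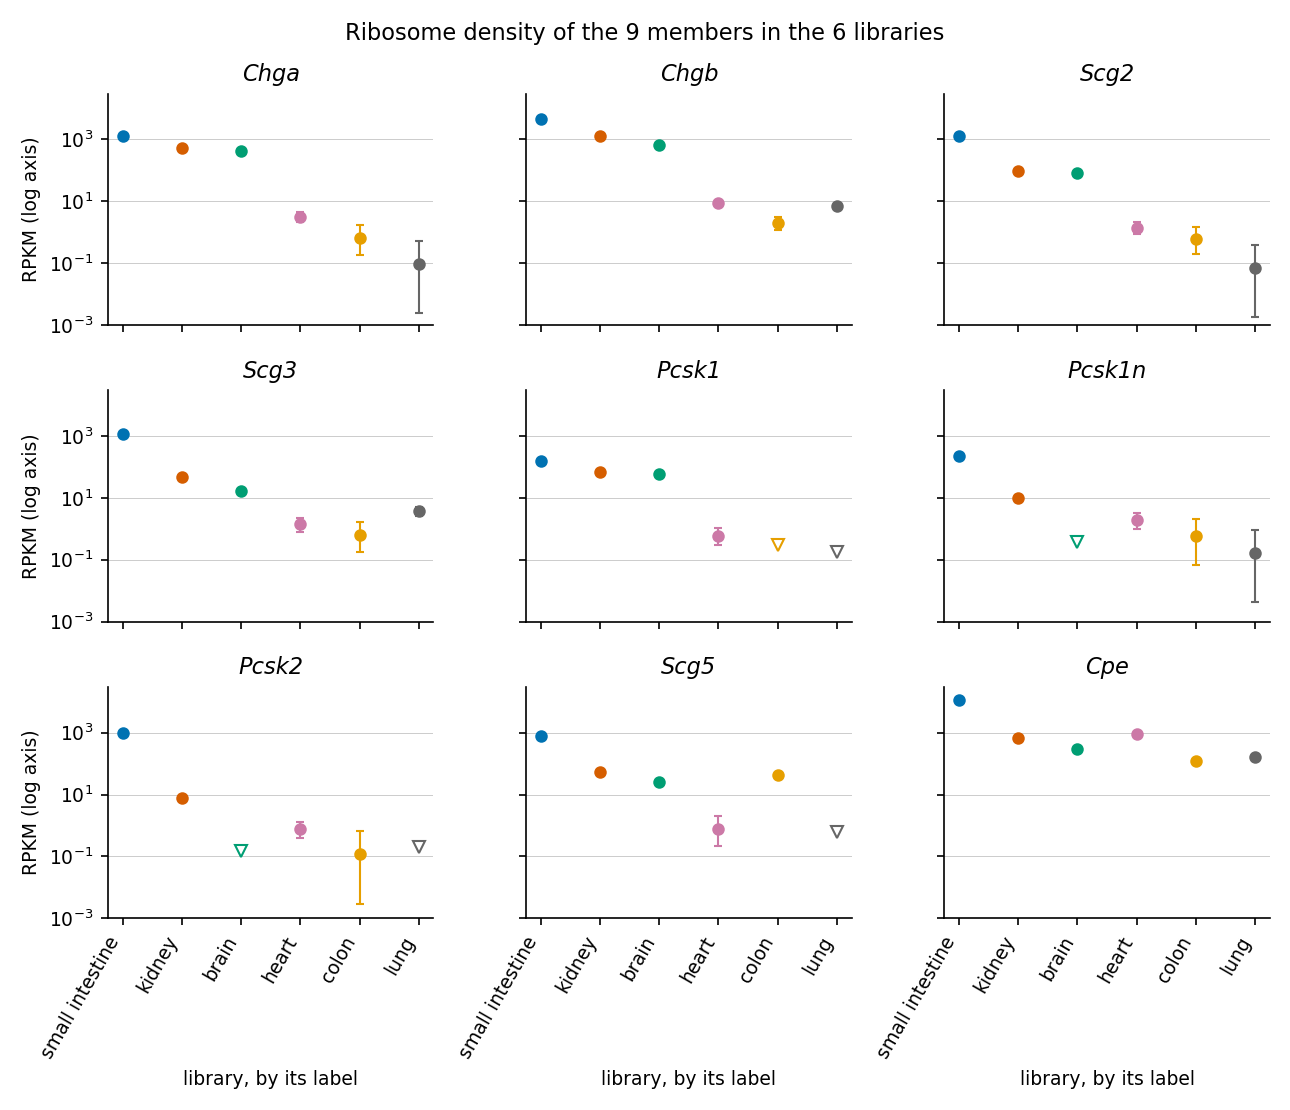
RPKM of each of the 9 genes (log axis) in the 6 libraries, named by label. Points are values with exact 95% counting intervals (often smaller than the point), and open triangles mark the RPKM of 3 reads where an mRNA had 0 reads. All 9 genes are highest in the library labelled small intestine, and Cpe is the only one above 100 RPKM in all 6.

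Chromogranin A (Chga, ENSMUSG00000021194, chromosome 12 from 102520484 to 102531300, plus strand of GRCm39) is the granin most used as a marker of endocrine cells. Its density was 1268 RPKM under small intestine, 523 under kidney, 426 under brain, 3.08 under heart, 0.639 under colon and 0.0931 under lung. The last 3 values rest on 35, 4 and 1 reads, while the first 3 rest on 13464, 5513 and 6289. The libraries thus fell into a high trio and a low trio, with a gap of 138-fold (95% interval 99.3 to 199) between the labels brain and heart. Within the high trio the label kidney exceeded the label brain by 1.23-fold (1.19 to 1.27). Colon and lung labels did not differ beyond counting error.

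Chromogranin B (Chgb, ENSMUSG00000027350, chromosome 2 from 132622464 to 132637904, plus strand) is a larger granin found in most of the same cells. It had 4567 RPKM under small intestine, which made it the mRNA of rank 14 there, 1224 under kidney, 664 under brain, 8.84 under heart, 7.01 under lung and 1.97 under colon. The same trio was high. The labels heart and lung, with 147 and 110 reads, did not differ beyond counting error, with a ratio of 1.26 (0.979 to 1.63).

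Secretogranin II (Scg2, ENSMUSG00000050711, chromosome 1 from 79412386 to 79417837, minus strand) is the precursor of the neuropeptide secretoneurin. Its values were 1300.3 RPKM under small intestine, 93.5 under kidney, 81.9 under brain, 1.39 under heart, 0.60 under colon and 0.0699 under lung. Here the library labelled small intestine stood 13.9-fold (13.2 to 14.7) above the next, whereas for Chga it stood 2.42-fold (2.35 to 2.50) above. Kidney and brain labels differed by 1.14-fold (1.06 to 1.23), the smallest gap between them in the set.

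Secretogranin III (Scg3, ENSMUSG00000032181, chromosome 9 from 75546929 to 75591396, minus strand) binds Chga and Cpe and tethers granin aggregates to the granule membrane. It was read at 1194 RPKM under small intestine, 45.9 under kidney, 16.0 under brain, 3.66 under lung, 1.38 under heart and 0.628 under colon. The fold of the highest over the next library was 26 (23.8 to 28.5). Lung here exceeded heart, by label, 2.65-fold (1.45 to 5.06), from 40 and 16 reads.

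Convertase 1 (Pcsk1, ENSMUSG00000021587, chromosome 13 from 75237284 to 75284898, plus strand) makes the first cuts in many prohormones. It had 156 RPKM under small intestine, 68.9 under kidney, 57.4 under brain and 0.595, from 11 reads, under heart. It was not listed in the libraries labelled colon and lung, where 3 reads would give 0.295 and 0.172 RPKM. Pcsk1 had the smallest lead of the label small intestine among the 9 genes, 2.26-fold (2.11 to 2.42), and rank 700 among the mRNAs of that library.

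Convertase 2 (Pcsk2, ENSMUSG00000027419, chromosome 2 from 143387993 to 143659507, plus strand) often acts after convertase 1 on the same precursors. Its density was 1010.4 RPKM under small intestine, 7.94 under kidney, 0.767 under heart and 0.116, from 1 read, under colon. It was listed at 0 in the library labelled brain and not listed under lung, where 3 reads would give 0.148 and 0.203 RPKM. The lead over the label kidney was 127-fold (106 to 154). Against the label brain it was 6845-fold, taking 3 reads as the limit, and the lower end of the exact interval was 5566-fold.

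Pcsk2 and Pcsk1 therefore changed places between libraries. Per length, the ratio of Pcsk1 to Pcsk2 was 0.154 (0.148 to 0.161) under small intestine, 8.69 (7.17 to 10.6) under kidney and at least 389 under brain, where 1380 reads of Pcsk1 stood against 0 of Pcsk2. With 11 and 12 reads, the ratio in the library labelled heart was 0.775 (0.310 to 1.92) and not distinct from 1.

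The binding partners of the convertases had profiles of their own. Pcsk1n (ENSMUSG00000039278, chromosome X from 7786043 to 7790649, plus strand) had 223 RPKM under small intestine, 9.71 under kidney, 1.89 under heart, 0.574 under colon and 0.167 under lung. It was not listed in the library labelled brain, where 3 reads would give 0.364 RPKM. The inhibitor was thus absent from the reads of a library in which its target, Pcsk1, had 1380 reads. Per length, Pcsk1n to Pcsk1 was 1.43 (1.34 to 1.53) under small intestine, 0.141 (0.106 to 0.184) under kidney and at most 0.00781 under brain, the upper end of the interval.

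Scg5 (ENSMUSG00000023236, chromosome 2 from 113606688 to 113660094, minus strand) had 775 RPKM under small intestine, 53.1 under kidney, 42.2 under colon, 25.4 under brain and 0.769 under heart. It was not listed under lung, where 3 reads would give 0.610 RPKM. Scg5 was the only one of the 9 genes besides Cpe above 40 RPKM under colon, from 121 reads. There Pcsk2 had 1 read, which put Scg5 over Pcsk2 at 364 per length (64.0 to 14478). The same ratio was 0.767 (0.740 to 0.795) under small intestine and 6.69 (5.35 to 8.41) under kidney. Under brain it was 172 taking 3 reads as the limit, with an exact lower end of 139.

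**Figure D2:**
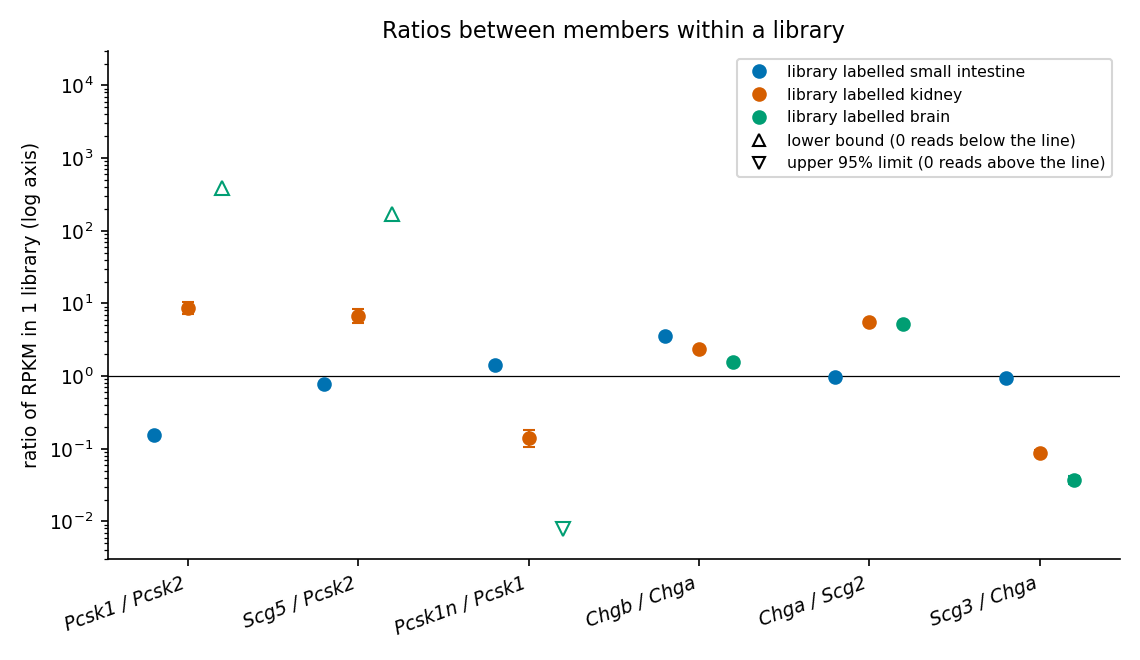
Ratio of the RPKM of the named pair of genes within 1 library (log axis) in the libraries labelled small intestine, kidney and brain. Bars are exact 95% counting intervals, and the downward triangle is the upper end of an interval. Upward triangles, called lower bound in the key, are ratios with 3 reads as the limit. Pcsk1 over Pcsk2 runs from 0.154 to 389 at that limit, while Chgb over Chga stays between 1.56 and 3.60.

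Ratios among the granins differed between the libraries as well. Chgb over Chga was 1.56 (1.51 to 1.61) under brain, 2.34 (2.27 to 2.41) under kidney and 3.60 (3.54 to 3.67) under small intestine. Chga over Scg2 was 5.20 (4.92 to 5.49), 5.60 (5.27 to 5.95) and 0.975 (0.954 to 0.997) in the same order. Scg3 over Chga was 0.0377 (0.0330 to 0.0428), 0.0877 (0.0798 to 0.0962) and 0.942 (0.919 to 0.965). Chga, Scg2 and Scg3 were thus close to each other per length under small intestine, whereas Chga led under kidney and brain.

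Carboxypeptidase E (Cpe, ENSMUSG00000037852, chromosome 8 from 65045555 to 65146435, minus strand) had 11081 RPKM under small intestine, 919.5 under heart, 659.9 under kidney, 291 under brain, 158 under lung and 121 under colon. Its 120962 reads were 1.58% (95% Wilson interval 1.57 to 1.59) of all reads of the library labelled small intestine. Only Kri1 and mt-Atp6 were denser there, and Apoe, Ptms and Camk2a came after it. Each step in the order of the 6 libraries exceeded counting error, from 12.1-fold (11.8 to 12.3) between small intestine and heart to 1.31-fold (1.20 to 1.42) between lung and colon.

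Cpe was the only member whose next library was that labelled heart, where the granins were low. There it had 10745 reads and rank 137, and its density was 104 times (88.3 to 123) that of Chgb. Of the summed RPKM of the 9 genes, Cpe held 98.0% under heart, 93.5% under lung and 72.2% under colon. Its part was 51.4% under small intestine, 24.6% under kidney and 18.6% under brain. Chgb held more than Cpe under kidney, at 45.6%, and under brain, at 42.5%. The sum itself was 21575 RPKM under small intestine, 2687 under kidney, 1561 under brain, 938 under heart, 169 under lung and 168 under colon.

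Relative to the library labelled small intestine, the libraries labelled kidney and brain kept very different parts of each gene. Pcsk1 stood at 44.3% and 36.9% of that level, Chga at 41.3% and 33.6%, and Chgb at 26.8% and 14.5%. A middle group had Scg2 at 7.19% and 6.30%, Scg5 at 6.85% and 3.28%, and Cpe at 5.96% and 2.62%. Pcsk1n was at 4.35% under kidney, Scg3 at 3.85% and 1.34%, and Pcsk2 at 0.785% under kidney. The order of the genes was the same in both libraries down to Cpe.

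**Figure D3:**
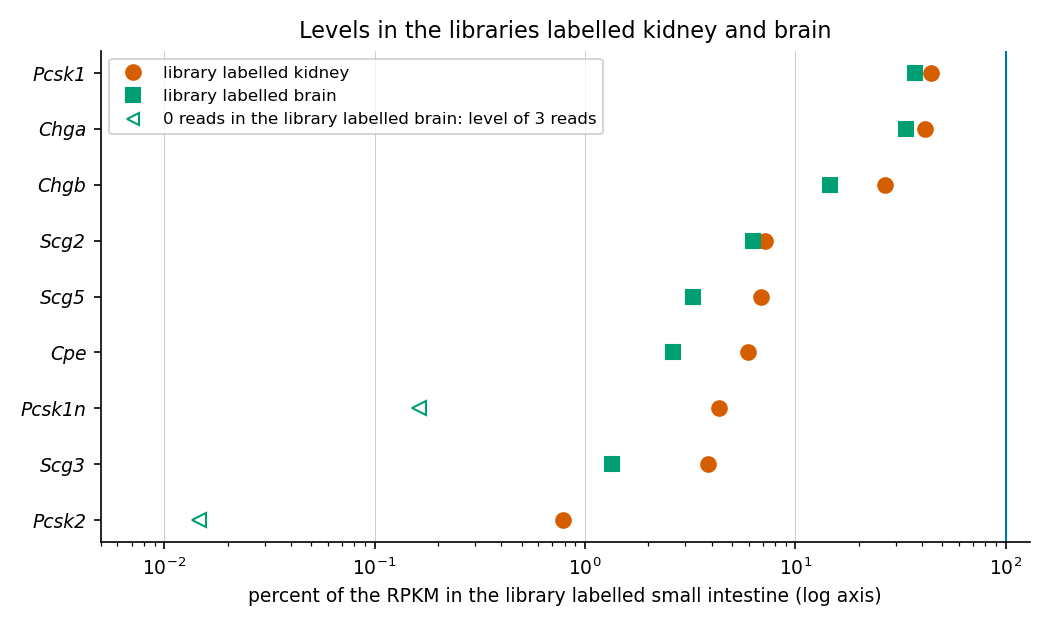
RPKM in the libraries labelled kidney (circles) and brain (squares) as a percent of the RPKM in the library labelled small intestine (line at 100, log axis). Open triangles mark the level of 3 reads for Pcsk1n and Pcsk2, which had 0 reads under the label brain. Pcsk1, Chga and Chgb lie between 14.5% and 44.3%, and the other 6 genes below 8%.

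Between these libraries, 5 of the 9 genes were at least 2-fold denser under kidney, against 26.8% of the 11507 mRNAs with at least 20 reads in both together. None of the 9 was at least 2-fold denser under brain, against 29.2% of those mRNAs. Cpe was 2.27-fold (2.19 to 2.36), Scg3 2.86-fold (2.45 to 3.35) and Scg5 2.09-fold (1.71 to 2.55) denser under kidney. For Pcsk2 and Pcsk1n, with 115 and 57 reads against 0, the differences were 53.8-fold and 26.6-fold, taking 3 reads as the limit. The lower ends of their exact intervals were 43.0-fold and 21.0-fold. Chgb was at 1.84-fold, and passed 2-fold when Kri1, which took 22.1% of the reads under kidney and 2.01% under brain, was left out of the totals.

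Peptide precursors that such cells carry were split over the same libraries. Of 28 prohormones listed, 19 had at least 50 reads, of which 9 were highest under small intestine, 4 under brain, 4 under kidney and 2 under heart. Over all mRNAs with that many reads, 21.8%, 16.4%, 7.34% and 12.6% were highest in these libraries, in the same order. Cholecystokinin (Cck) at 1277 RPKM, proenkephalin (Penk) at 419 and the substance P precursor (Tac1) at 362 were the densest under small intestine. The library labelled brain, with 0 reads of Pcsk2, had the gut hormone precursors secretin (Sct) at 208, neurotensin (Nts) at 112, Gip at 78.6 and ghrelin (Ghrl) at 45.5 RPKM. The library labelled kidney had Vip, the vasoactive intestinal peptide precursor, at 146 and proglucagon (Gcg) at 97.2 RPKM, and Insl5 at 50.3 and peptide YY (Pyy) at 49.2 RPKM. Several were shared, since Vip had 117 RPKM under brain and 193 under small intestine, Sct had 78.1 under kidney, and Gcg and Pyy had 55.5 and 33.9 under brain. Against these, Gip and Sct were at 0.908 and 0.941 RPKM under small intestine, and Insl5 and Pyy had no reads there.

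The library labelled heart held dense natriuretic peptide precursors, Nppa at 3306 and Nppb at 3262 RPKM, beside its Cpe of 919.5 RPKM. Pcsk1 and Pcsk2 were at 0.595 and 0.767 RPKM there. Pam, the amidating enzyme, was highest in that same library at 483 RPKM, and was 159 RPKM under small intestine, 149 under lung, 123 under kidney, 36.9 under colon and 19.9 under brain. Per length, Pam over Cpe was 0.525 (0.512 to 0.540) under heart, 0.944 (0.890 to 1.00) under lung and 0.0143 (0.0138 to 0.0148) under small intestine. Pam and Cpe, which act one after the other on many peptides, were thus near parity only in the library labelled lung.

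Other granule proteins were denser under small intestine in most cases. Of 16 genes for the membrane, formation and release of dense-core granules, 11 were highest there and 7 of them by at least 5-fold, beside 21.8% and 8.17% of all mRNAs. The median of the list was 40.3 RPKM under small intestine, 10.3 under kidney, 5.13 under brain, 2.67 under lung, 0.979 under colon and 0.897 under heart, while the median over all mRNAs lay between 1.58 and 3.56. Vgf, a granin-like peptide precursor outside the 9 genes, had 879.8 RPKM under small intestine and 11.4 under kidney. Ptprn2 and Ptprn, receptor-like proteins of the granule membrane, had 413 and 191 under small intestine, and Syt4, a granule synaptotagmin, had 405. Cyb561, the granule electron carrier, was highest under kidney at 67.5 RPKM, and Rab2a, a general trafficking GTPase, lay between 75.3 and 155 in all 6.

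Relatives of the members were compared next. Among 8 proprotein convertases, 7 had at least 50 reads, of which 2, Pcsk1 and Pcsk2, were highest under small intestine (28.6%, near the 21.8% of all mRNAs). Furin, the convertase of the constitutive pathway, lay between 6.09 and 22.1 RPKM in all 6 libraries. Pcsk5 reached 75.8 under brain, Pcsk6 reached 46.2 under heart, Pcsk7 reached 13.8 under kidney and Mbtps1 reached 74.9 under lung. The 7 carboxypeptidases related to Cpe had their highest values elsewhere, with Cpd at 158 under kidney, Cpm at 139.7 under lung, and Aebp1 at 157 and Cpn1 at 94.2 under colon. Cpe over Cpd, which does the same trimming in the trans-Golgi network, ranged per length from 1.22 (1.15 to 1.29) under lung to 226 (215 to 238) under small intestine.

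**Figure D4:**
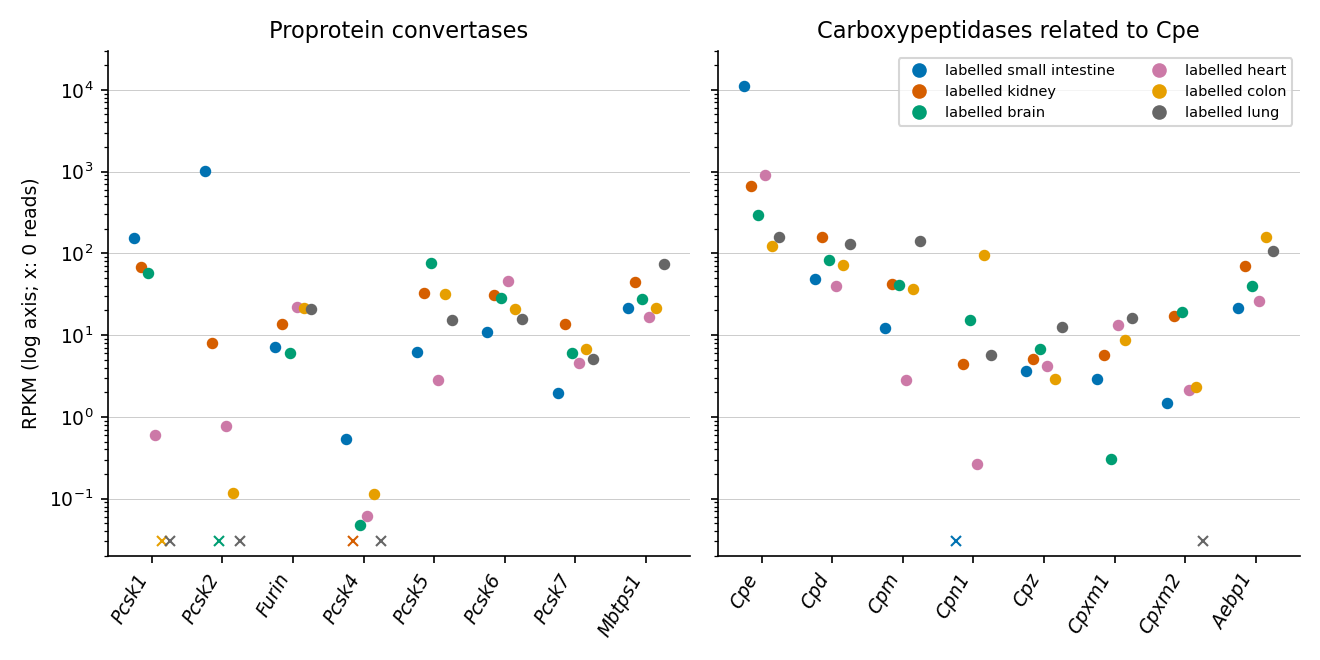
RPKM (log axis) of the proprotein convertases and of the carboxypeptidases related to Cpe in the 6 libraries, with crosses for 0 reads. Pcsk1, Pcsk2 and Cpe are topped by the library labelled small intestine, and of their relatives only Pcsk4, at 0.533 RPKM and under 50 reads, shares this.

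Markers of cells that use these genes were read beside them. All 10 neuron markers were highest under small intestine, against 21.8% of all mRNAs. They summed there to 12721 RPKM, and their sums in the other libraries lay between 13.0 (colon) and 149 (lung). Snap25, a synaptic fusion protein, had 683 RPKM under small intestine, 13.2 under kidney and 0.761 under brain. Some other neuron markers differed less between the labels kidney and brain, such as Syp at 7.14 and 6.49 RPKM and Tubb3 at 5.96 and 4.74. Camk2a went the other way, at 10.6 and 20.8 RPKM, while Nefl, at 7.29 and 0.231, differed more. The sums of the 10 markers were 111 RPKM under kidney and 68.5 under brain. Of 9 enteroendocrine markers, 8 were listed and 3 had at least 50 reads. Their sums were 29.0 RPKM under small intestine, 26.4 under brain, 7.68 under kidney and between 0.182 and 1.32 in the others. Under small intestine most of this came from Neurod1, which neurons also express, at 16.7 RPKM. Tph1, which makes serotonin in the gut, had 9.96 RPKM under brain, 3.34 under kidney and 0.0976 under small intestine, and Neurog3 had no reads in any library. Fev, the other marker with at least 50 reads, had 10.8 RPKM under brain, 8.65 under small intestine and 4.08 under kidney. For Fev the labels small intestine and brain did not differ beyond counting error, with a ratio of 0.797 (0.545 to 1.16). Adrenal medulla markers summed to between 6.39 (heart) and 121 (colon) RPKM, mostly from Ddc at 98.2 under colon and 93.6 under brain, and Pnmt, which makes adrenaline, had reads under heart only. How far these cells account for the densities of the 9 genes was not tested.

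The mRNAs with the most similar profile were sought among 8136 others with at least 500 reads, by the percent of the summed RPKM that would have to move between libraries to make the profiles equal. For Pcsk2 these were Cplx1 at 0.0563%, Synpr at 0.119% and Ermn at 0.147%, and for Pcsk1n they were Sptbn4 at 0.314%, Reep2 at 0.645% and Slit1 at 0.676%. Scg3 was nearest to Syt4 at 0.947%, Diras2 at 1.05% and Kif5a at 1.10%. Scg2 had Dlgap3, Clip3 and Mtcl3 between 1.22% and 2.37%, Scg5 had Ttbk1, Nrn1 and Atl1 between 1.41% and 3.64%, and Cpe had Ppm1e, Adcyap1r1 and A2m between 2.45% and 4.14%. The profiles of Chga, Chgb and Pcsk1 had fewer close matches. Chga was nearest to Plch2 at 5.88%, with Kcnh3 and Tenm3 at 11.9% and 12.0%, Pcsk1 was nearest to Plch2 at 4.67%, with Smpd3 and Ret at 10.4% and 11.8%, and Chgb had Kcnh3, Atp8a2 and Mtmr7 between 3.90% and 8.87%.

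Within the set, Chga and Pcsk1 were closest but for 1 pair, at 2.03%, and Pcsk1n and Scg3 were that pair, at 1.49%. The profiles most unlike each other were those of the convertases, Pcsk1 and Pcsk2, at 44.1%. Scg2 and Scg5 were 4.67% apart, and Cpe was 8.06% from Scg5 and 8.93% from Scg2.

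The CDSs themselves were compared. Granins are known as acidic proteins, so the share of acidic codons in them describes the family and is not independent of the choice of the genes. Codons for aspartate or glutamate made up 23.2% of Chgb, 21.8% of Chga, 19.7% of Scg3 and 19.1% of Scg2, where the median over 18154 CDSs was 11.4% and between 97.3% and 99.4% of CDSs lay below these granins. The remaining 5 genes were between 12.6% (Pcsk2) and 14.6% (Scg5). Chgb had 23 adjacent pairs of lysine or arginine codons, the form at which convertases cut, Pcsk2 had 16, Pcsk1 12, Chga and Scg2 9 each, and the others between 5 and 8. Per 100 codons, Chgb (3.40) and Scg5 (3.30) exceeded 93.0% and 92.5% of CDSs, and Scg2 (1.46) and Scg3 (1.49) were close to the median of 1.42. The share of codons ending in G or C ran from 40.7% in Pcsk1 to 74.6% in Pcsk1n, on both sides of the median of 58.9%.

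**Figure D5:**
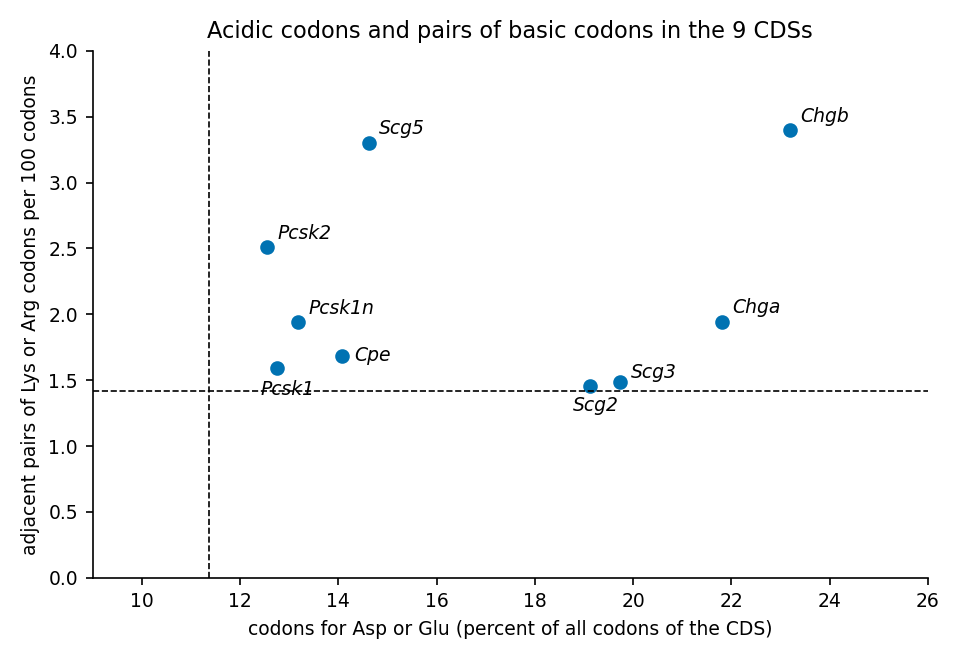
Codons for Asp or Glu (percent of the CDS) against adjacent pairs of Lys or Arg codons per 100 codons in the 9 CDSs, with dashed lines at the medians of 18154 CDSs. Chga, Chgb, Scg2 and Scg3 lie to the right at 19.1% or more, and Chgb and Scg5 lie highest at 3.40 and 3.30.

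Promoters were searched for the cAMP response element, TGACGTCA, the motif bound by CREB, because it has long been known in granin genes. RefSeq promoter windows of equal length, which span the start site on GRCm38.p6, were given for 8 of the 9 genes, all but Cpe. The full motif was in 3 of the 8, Scg2, Chgb and Pcsk1, and in 1.79% of 32851 promoters. The shorter TGACGT, on either strand and contained in the full motif, was in 5 of the 8, the further ones being Chga and Scg5, and in 7.51% of all promoters. TATAAA was in Chga alone, beginning at base 6 counted from the RefSeq start and so downstream of it, and in 13.6% of all promoters. TTCAGCACC, from the neuronal silencer element RE1, was in Scg2 alone, and in 0.371% of all promoters. In Scg2 it was on the opposite strand, with its first base 7 bases before the start. These are matches of letters and not shown to be bound sites.

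The windows around the motif are shown because Scg2, Chgb and Pcsk1 carry it, and Chga its shorter form, on the strand of the gene, beginning 68, 72, 78 and 44 bases before the RefSeq start. Capitals mark the motif, and each window is read 5′ to 3′ on the strand of its gene. The whole RefSeq promoter of each gene matched its own chromosome of GRCm39 once, searched on the strand of the gene. This places the windows shown at chr1:79417793-79417822 on the minus strand for Scg2 and chr2:132623479-132623508 on the plus strand for Chgb. Those of Pcsk1 and Chga are at chr13:75237887-75237916 and chr12:102521145-102521172, both on the plus strand. GENCODE places the windows of Scg2, Chgb and Chga on the first exon of the counted transcript, as 5′ UTR, and that of Pcsk1 on the first exon of other transcripts only.
Scg2: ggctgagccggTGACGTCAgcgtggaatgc
Chgb: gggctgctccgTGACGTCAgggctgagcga
Pcsk1: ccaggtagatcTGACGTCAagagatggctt
Chga: gggcggtcctaTGACGTaatttcctggg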

How the data were processed

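The authors deposited RPKM values of 6 Ribo-seq libraries, 1 per tissue. The submitters' processing notes name cutadapt, STAR and GRCm39 without versions, and the Methods, written for macrophage libraries, describe uniquely mapped reads with at most 2 mismatches and at least 15 nt, assigned to P-sites and counted on the CDS. RPKM times CDS length gave whole reads for 100% of values (tolerance 0.01) in every library. A strongly read mRNA such as Kri1 lowers the RPKM of all others in its library. Genes were named and CDSs built with GENCODE M39 on GRCm39, a later annotation in which 18154 of 18437 CDSs had the deposited length.

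Intervals are exact Poisson, exact conditional binomial (ratios) or Wilson, at 95%. No gene is left out of the lists by its value, and counts of leading libraries use mRNAs with at least 50 reads in all. The genes, lists and comparisons were chosen with earlier results of these data known. Genes named are the 9, the convertase and carboxypeptidase relatives, the finishing enzymes, the densest genes of each list, and the 3 mRNAs most similar to each member. Further genes of these lists, such as Tph1, Snap25, Gip and Rab2a, were named after their values were seen. With 1 library per label no differential test, replicate check or p-value was possible. Some genes of the lists are not reported here and are left out of list counts and sums. Recovery of reads and the call by fold over the next library were tested on simulated data. The other counts were not tested in this way. Python 3.11.15, numpy 2.4.6, scipy 1.17.1, pandas 2.3.3, matplotlib 3.10.9 and biopython 1.88 were used.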

Additional observations from a re-analysis of the deposited data

How the results depend on the processing

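All 9 genes were highest in the library labelled small intestine under median-ratio size factors. They were also highest there with Kri1 or the 10 mRNAs with most reads left out of the totals. The same held with reads thinned to the lowest total, and with each other library left out in turn (chosen after seeing the data). In these settings, between 21.4% and 26.6% of all mRNAs were highest there. The count of 6 genes at least 5-fold above the next library kept that value under these scalings, at 10-fold and with minimums of 10 and 200 reads. It was 9 at 2-fold and 7 without the library labelled kidney, where Chgb passed. The lead of Cpe was 12.3-fold with median-ratio size factors, 13.9-fold without Kri1, 11.8-fold without the 10 mRNAs with most reads, and 16.8-fold without the library labelled heart, all outside its counting interval. Genes at least 2-fold denser under the label kidney than under brain were 6 in each of the 3 other scalings, where Chgb passed. The share of all mRNAs was 30.6% with median-ratio size factors, 31.7% without Kri1 and 33.7% without the 10 mRNAs with most reads. After thinning 4 genes passed, as Scg5 fell to 1.51-fold, beside 22.7% of all mRNAs. Genes denser under brain were 0 throughout, beside between 19.8% and 31.7% of all mRNAs. No paired analysis was possible because each label has 1 library, and leaving out a replicate was not possible for the same reason. Densities of the 9 genes below 1 RPKM rest on at most 12 reads, so their order between libraries is limited by counting.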
